A study of Mus musculus with 15 samples.

Results

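The genes described here are the chemokines and chemokine receptors measured on whole-transcriptome arrays of fetal mouse gonads. Every transcript cluster (the set of probes that stands for 1 gene on the array) was taken whose single gene symbol was a *Ccl*, *Cxcl*, *Cx3cl1* or *Xcl1* ligand, a *Ccr*, *Cxcr*, *Cx3cr1* or *Xcr1* receptor, or an *Ackr* atypical receptor. This gave 54 genes, 35 ligands and 19 receptors, of 30176 genes with a symbol of their own, and each was read by 1 cluster. A further 21 clusters carried such a name among several symbols, those of *Ackr2* and *Ackr3* among them, and were not counted as members. None of these 21 was called in any comparison below.

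Gonads were compared at E15.5 (the age on the labels; the study's data statement lists this set under an earlier stage) in 3 groups of 5 arrays. The dKO XY group was *Amh*-/-; *Inhbb*-/-, lacking from conception, in every cell, both anti-Müllerian hormone and the inhibin beta B chain from which activin B is built. Control XY (testis) and control XX (ovary) were wild-type at both genes, and all groups came from crosses of *Amh* and *Inhbb* heterozygotes on a C57BL/6 background. Whole gonads freed of the mesonephros were used, so that a lower signal from fewer cells of a type and from less RNA per cell cannot be told apart. The study describes the 5 samples of a group as independent biological replicates, and its heat map of this age as showing 1 gonad per column.

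Chemokines are small secreted proteins that direct cell movement through receptors coupled to G proteins of the Gi class, and are sorted into CC, CXC, CX3C and C families by the spacing of their first cysteines. Inflammatory members are induced in injured or infected tissue and draw in leukocytes, homeostatic members are made constantly and position cells in organs, and atypical receptors bind chemokines without signalling through G proteins. In the fetal gonad the best known pair is CXCL12 and its receptor CXCR4, which guides migrating primordial germ cells to the genital ridge and helps them survive there. CCL17 and CCL22 share the receptor CCR4, found on type 2 helper and regulatory T cells.

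All values are the deposited log2 signals, and a difference of 1 is called 2-fold by convention only, because 891 clusters exceeded 16 on at least 1 array, the ceiling of a 16-bit scanner, so the scale appears to be stretched. Signals of different genes were not compared as amounts of RNA, since probes differ in brightness. They were ranked only to choose members to name and to find dim ones. A gene was called when its limma p-value, adjusted by Benjamini-Hochberg over all 65956 non-control clusters, was below 0.05 and the group means differed by at least 1. Array medians lay between 5.17 and 5.33, and each array's mean correlation with its own group was 0.991 to 0.995. *Amh* read 4.40 to 4.72 in dKO XY against 10.94 to 12.09 in control XY. *Inhbb* read 9.17 to 9.38 against 10.33 to 10.63, and where its probes lie relative to the deletion was not examined.

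Few chemokine genes were called, that is, differed by at least 1. By the adjusted p alone, 10 members were lower (18.5%) and 3 higher (5.56%) in control XX against control XY. Of all clusters, 13.4% and 10.8% were. In dKO XY against control XY, *Ccl17* and *Cxcl12* were called lower and no member was called higher. These were 2 of 54 members (3.7%), where 1.62% of all clusters were called lower and 0.567% higher. In control XX against control XY, *Ccl17*, *Cxcl12* and *Cxcr4* were called lower (3 of 54, 5.56%) and none was called higher. Of all clusters, 3.22% were called lower and 2.54% higher. In dKO XY against control XX, *Cxcl12* and *Cxcr4* were called higher (2 of 54, 3.7%) and none was called lower, where 1.22% of all clusters were called higher and 1.28% lower. The comparisons share arrays pairwise and are not independent.

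**Figure D1:**
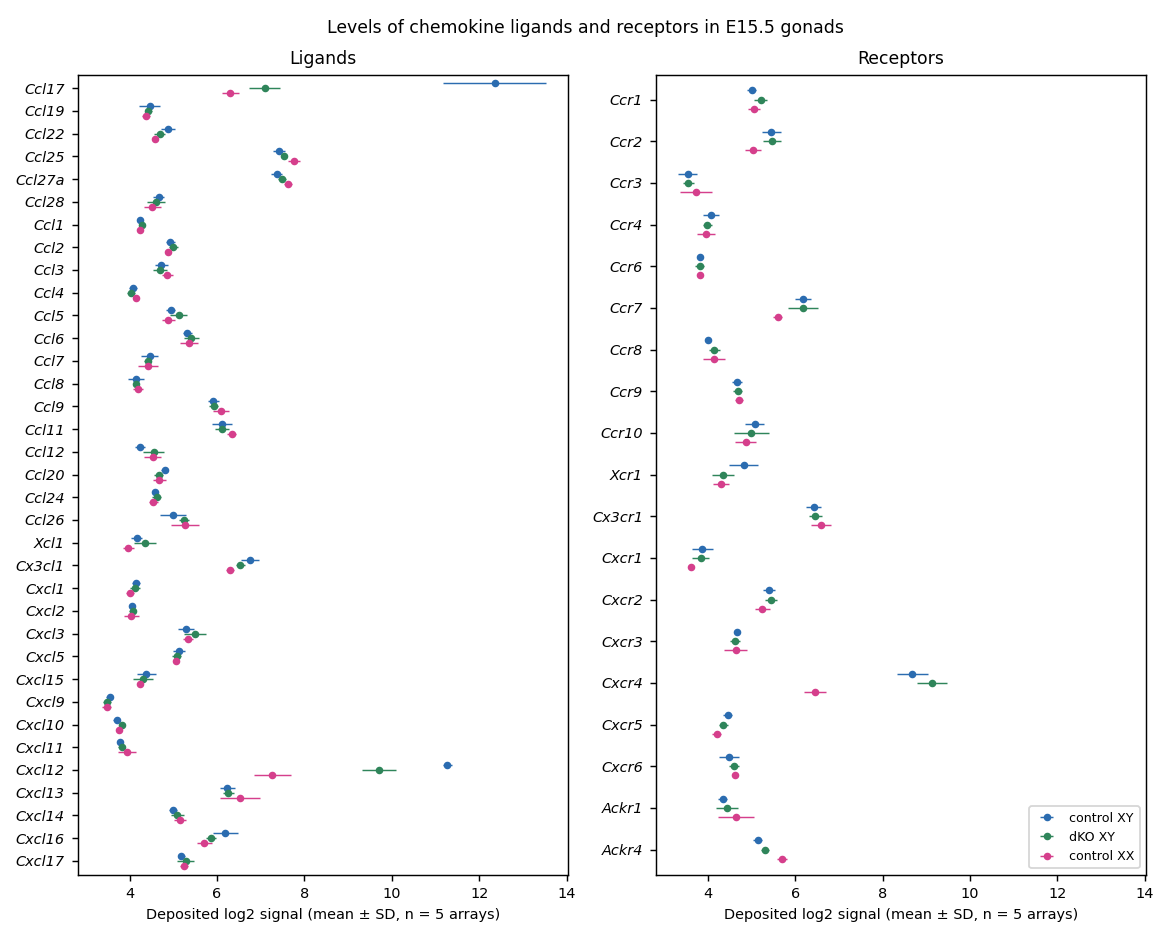
Deposited log2 signal (x axis) of the 35 ligands (left) and 19 receptors (right), listed by family; points are group means and lines are SD (n = 5 arrays) in blue for control XY, in green for dKO XY, in pink for control XX. *Ccl17*, *Cxcl12* and *Cxcr4* are the genes whose group means stand 1 or more apart; signals are to be read within a gene, not between genes.

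The promoters of these 3 genes are shown because they are the members called in any comparison; each is the 250 bases before the transcription start in RefSeq (GRCm38.p6), printed on the gene's strand, from chr8:94810203-94810452 (plus strand) for *Ccl17*, chr6:117168285-117168534 (plus strand) for *Cxcl12* and chr1:128592300-128592549 (minus strand) for *Cxcr4*. Capitals mark every match on either strand to the SMAD-binding letters CAGAC, to the GC box with the letters CCGCCC or to the SOX core, here the letters ACAAT, with matches to the minus strand appearing as their reverse complements.
Ccl17: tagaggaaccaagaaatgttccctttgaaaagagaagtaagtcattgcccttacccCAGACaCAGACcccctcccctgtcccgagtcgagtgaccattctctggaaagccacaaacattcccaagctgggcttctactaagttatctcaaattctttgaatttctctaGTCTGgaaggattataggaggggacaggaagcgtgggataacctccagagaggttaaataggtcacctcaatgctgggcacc
Cxcl12: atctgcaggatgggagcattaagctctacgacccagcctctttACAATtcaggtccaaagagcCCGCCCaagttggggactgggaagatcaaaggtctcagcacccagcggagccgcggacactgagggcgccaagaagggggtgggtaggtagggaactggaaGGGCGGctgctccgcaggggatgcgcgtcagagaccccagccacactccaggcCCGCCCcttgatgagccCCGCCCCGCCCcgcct
Cxcr4: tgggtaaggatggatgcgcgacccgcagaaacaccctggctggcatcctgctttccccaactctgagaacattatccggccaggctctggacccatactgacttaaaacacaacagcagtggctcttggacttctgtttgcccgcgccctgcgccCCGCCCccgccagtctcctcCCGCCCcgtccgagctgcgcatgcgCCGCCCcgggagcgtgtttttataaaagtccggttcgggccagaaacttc
SMAD proteins carry the signals of the TGF-beta family, to which both AMH and activins belong, and SOX9 drives Sertoli cell fate. The *Ccl17* window held 3 SMAD matches, starting 194, 188 and 82 bases before the start, and none of the other letters. The *Cxcl12* window held 5 GC boxes, of which the pair starting 16 and 11 bases before the start overlap by 1 base, 1 SOX core and no SMAD match. The *Cxcr4* window held 3 GC boxes. Over 32851 promoters of this length, 42.2% held a SMAD match, 32.7% a GC box and 27.7% a SOX core. Of the 40 members found in the promoter table, 15, 7 and 8 did. A match is a run of letters and not a measured binding site.

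*Ccl17*, a homeostatic CC ligand, showed the widest difference of any member. Control XY replicates 1 to 5 read 13.58, 10.50, 12.20, 13.07 and 12.39. The dKO XY replicates read 6.72, 6.92, 7.31, 6.90 and 7.61, and the control XX replicates read 6.40, 6.37, 6.14, 6.07 and 6.53. Every control XY array was thus far above every array of the other groups, with replicate 2 the lowest of its group, and the dKO XY arrays all lay just above the control XX arrays. The dKO XY mean was 7.09 ± 0.36 (SD, n = 5), against 12.35 ± 1.17 for control XY and 6.30 ± 0.19 for control XX. dKO XY was lower than control XY by 5.26 ± 0.40 log2 units (fall ± SE; limma adjusted p = 6.65e-07), and control XX was lower than control XY by 6.05 ± 0.40 (limma adjusted p = 8.55e-09). Without control XY replicate 2 the difference of dKO XY from control XY was -5.72, and without control XY replicate 1 it was -4.95.

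Whether dKO XY retained some *Ccl17* above the ovary level depended on the spread assumed. The difference of dKO XY from control XX was 0.79 (95% interval -0.06 to 1.63; limma adjusted p = 0.237) when all 15 arrays shared 1 estimate of the spread. That estimate holds the wide control XY group, and the SE fell from 0.40 to 0.23 without control XY replicate 2 (limma adjusted p = 0.0293) and to 0.16 with only the 2 groups compared (limma adjusted p = 0.0048). The difference itself remained below 1 in each. Of the distance between the control means on the log2 scale, the dKO XY mean had covered 13.0% from control XX towards control XY.

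*Cxcl12*, the ligand of the germ cell guidance pair and a product of stromal cells in many organs, took a middle position. Control XY read 11.35, 11.15, 11.28, 11.40 and 11.17 in replicates 1 to 5. dKO XY read 9.80, 10.09, 9.06, 9.68 and 9.92, and control XX read 7.09, 7.33, 7.39, 6.67 and 7.82. No group overlapped another. The means were 9.71 ± 0.39 (SD, n = 5) for dKO XY, 11.27 ± 0.11 for control XY and 7.26 ± 0.42 for control XX, which placed dKO XY 61.1% of the way from control XX to control XY. dKO XY was lower than control XY by 1.56 ± 0.19 (SE; limma adjusted p = 7.59e-05) and higher than control XX by 2.45 ± 0.19 (limma adjusted p = 2.32e-07). Control XX was lower than control XY by 4.01 ± 0.19 (limma adjusted p = 2.63e-10).

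*Cxcr4*, its receptor, was high in both XY groups. Control XY read 8.98, 8.36, 9.09, 8.65 and 8.30, dKO XY read 8.89, 9.36, 8.63, 9.33 and 9.39, and control XX read 6.59, 6.41, 6.29, 6.17 and 6.81. Both XY groups overlapped each other, and all 10 XY arrays were above all 5 XX arrays. The means were 9.12 ± 0.34 (SD, n = 5) for dKO XY, 8.68 ± 0.36 for control XY and 6.45 ± 0.25 for control XX. The difference of dKO XY from control XY was 0.44 ± 0.18 (SE; 95% interval 0.05 to 0.83; limma adjusted p = 0.158). dKO XY was higher than control XX by 2.67 ± 0.18 (limma adjusted p = 5.31e-08), and control XX was lower than control XY by 2.22 ± 0.18 (limma adjusted p = 1.21e-07). The ligand and the receptor of this pair therefore differed in the knockout comparison, *Cxcl12* being called and *Cxcr4* not, although the difference between the 2 genes was not itself tested.

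**Figure D2:**
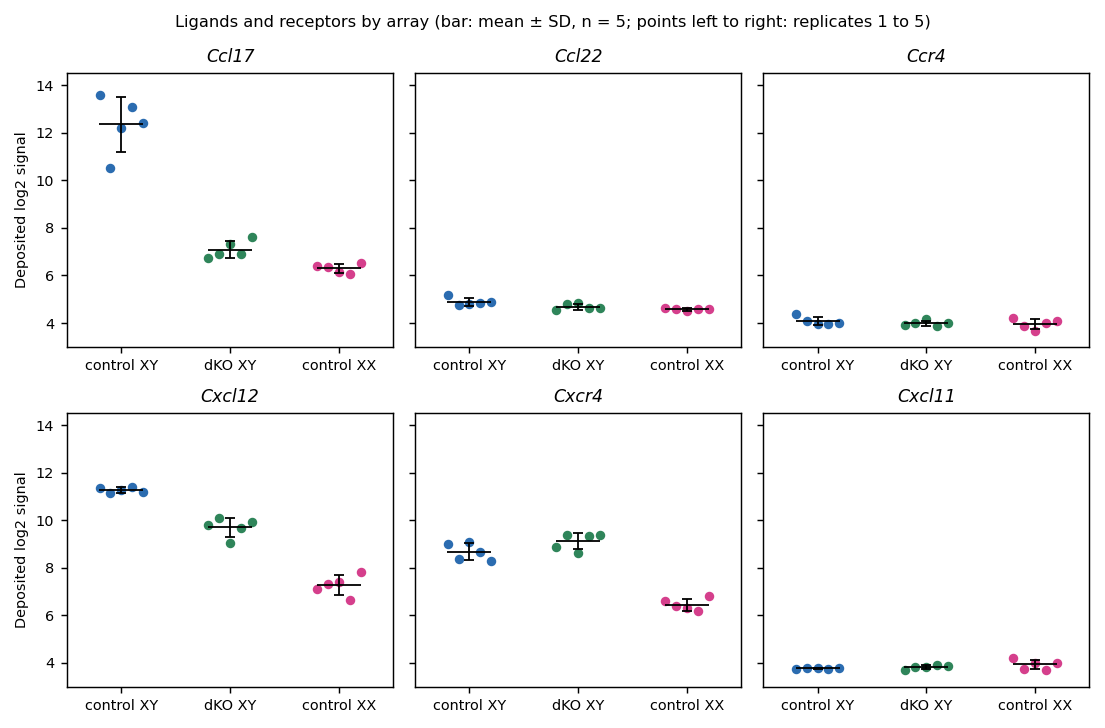
Deposited log2 signal (y axis) of each array for *Ccl17*, its fellow ligand *Ccl22* and their receptor *Ccr4* (top), and for *Cxcl12*, its receptor *Cxcr4* and *Cxcl11* (bottom); each point is 1 array, and the bars are means ± SD (n = 5). Control XY arrays of *Ccl17* read 10.50 to 13.58 and all other arrays 6.07 to 7.61, the 3 groups of *Cxcl12* stand apart, and *Cxcr4* overlaps between both XY groups only.

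No partner of *Ccl17* was called. *Ccl22*, the other CCR4 ligand, had means of 4.69 ± 0.13 (SD, n = 5) for dKO XY, 4.89 ± 0.16 for control XY and 4.57 ± 0.05 for control XX. Its difference between dKO XY and control XY was -0.20 (95% interval -0.38 to -0.02; limma adjusted p = 0.159). *Ccr4*, the shared receptor, had means of 4.00, 4.08 and 3.97 in the same order, with a difference of -0.08 (95% interval -0.31 to 0.14; limma adjusted p = 0.747) between dKO XY and control XY. The atypical receptors ACKR2, which binds CCL17 and CCL22, and ACKR3, which binds CXCL12, were not measured by clusters of their own. Of their other ligands, *Ccl2*, *Ccl3*, *Ccl4* and *Ccl5* are inflammatory CC ligands and *Cxcl11* is an interferon-inducible ligand. None of these 5 was called in any comparison. The 8 measured genes of the type 2 cytokine axis that is known to induce CCL17 and CCL22 elsewhere, such as the cytokines IL-4 and IL-13 and the factor STAT6, were not called either, with differences between dKO XY and control XY of -0.15 to 0.09. The background probe sets of the array had a median signal of 3.61. *Ccr4*, *Il4* and *Irf4*, the last also of the cytokine axis, were at 4.08, 4.07 and 3.86 in control XY. These read little above it, where a change may go unseen.

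The genes beside the called members on the chromosome were examined as well, a set chosen after the values had been seen. *Ccl17* lies between *Ccl22* and *Cx3cl1* on 1 side and *Ciapin1*, *Coq9* and *Polr2c* on the other, and none of its 6 nearest coding neighbours was called. Among the neighbours of *Cxcl12*, only *Rassf4*, 3 genes away, was called. *Tmem72* and *Depp1* lie between them and differed by 0.04 and 0.44 in dKO XY from control XY. *Rassf4*, which encodes a protein with a Ras association domain, showed differences of -0.94 in dKO XY (limma adjusted p = 0.000255, short of the threshold of 1) and -3.11 in control XX (limma adjusted p = 7.64e-11) from control XY. It was higher by 2.17 in dKO XY than in control XX (limma adjusted p = 1.41e-08). Among the measured neighbours of *Cxcr4*, only *Cd55*, 3 genes away, was called. *Thsd7b*, next to *Cxcr4*, lay above control XY by 0.23 in dKO XY (limma adjusted p = 0.0514). *Cd55*, an inhibitor of complement, was lower in dKO XY than in control XY by 1.49 (limma adjusted p = 5.28e-06) and than in control XX by 1.09 (limma adjusted p = 3.75e-05), an order unlike that of *Cxcr4*. *Cd55b*, the related gene between them, showed the same order, at -0.90 against control XY (limma adjusted p = 8.94e-06) and -0.60 against control XX (limma adjusted p = 0.000161), both short of the threshold of 1.

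**Figure D3:**
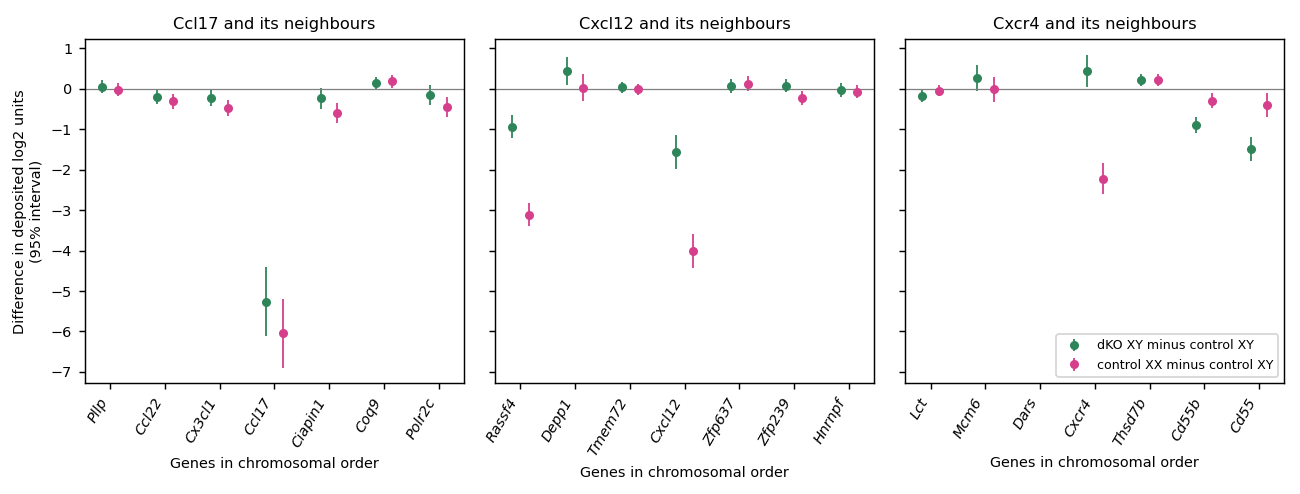
Difference in deposited log2 units (y axis; bars are 95% intervals) of dKO XY (green) and control XX (pink) from control XY, for each called member and the 3 coding genes on either side of it, in chromosomal order; *Dars* was not measured by a cluster of its own. In the left panel *Ccl17* is the gene far from 0, in the middle panel *Rassf4* lies below 0 with *Cxcl12*, and in the right panel *Cd55* is at -1.49 in dKO XY.

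No other ligand was called. Among the 6 homeostatic CC ligands, *Ccl25*, which draws developing T cells to the thymus and gut, had means of 7.53 ± 0.05 (SD, n = 5) for dKO XY, 7.42 ± 0.14 for control XY and 7.76 ± 0.15 for control XX. *Ccl27a*, known from skin, had means of 7.48 ± 0.09, 7.37 ± 0.13 and 7.62 ± 0.10. Both were slightly above control XY in control XX, by 0.34 (limma adjusted p = 0.00529) and 0.26 (limma adjusted p = 0.022), under the threshold of 1. *Cx3cl1*, a membrane-bound ligand that can be shed and that lies beside *Ccl17*, had means of 6.53 ± 0.11, 6.76 ± 0.21 and 6.29 ± 0.09, and was lower in control XX than in control XY by 0.47 (limma adjusted p = 0.00126), again under 1.

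The inducible ligands were not called either. The 14 inflammatory CC ligands differed between dKO XY and control XY by -0.13 to 0.31, the 5 ELR-type CXC ligands that attract neutrophils by -0.08 to 0.20 and the 3 interferon-inducible CXC ligands, *Cxcl9*, *Cxcl10* and *Cxcl11*, by -0.06 to 0.12. Every 95% interval of these genes in that comparison lay within 1 log2 unit of 0. Their group means ran from 4.03 to 6.34, 4.02 to 5.49 and 3.48 to 3.94 in the same order. The background probe sets of the array had a median signal of 3.61. Signals flatten near that level, so the narrow intervals of the dimmest ligands do not exclude a larger change in RNA. Of 14 measured genes of the NF-kB and interferon responses that induce such ligands, 1 was called: *Gbp2*, an interferon-induced GTPase, was higher than in control XY by 1.36 in dKO XY (limma adjusted p = 2.71e-05) and by 1.25 in control XX (limma adjusted p = 9.3e-06).

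Among the receptors, *Cxcr4* alone was called. The 9 CC receptors differed between dKO XY and control XY by -0.08 to 0.20. *Ccr7*, which brings dendritic cells and T cells into lymphoid tissue, read 5.45 to 5.72 in control XX, 5.97 to 6.37 in control XY and 5.64 to 6.48 in dKO XY. Control XX lay below control XY by 0.58 (limma adjusted p = 0.00495), and dKO XY above control XX by 0.59 (limma adjusted p = 0.0078), both under 1. *Ackr4*, an atypical receptor that removes CCL19, CCL21 and CCL25, was the uncalled member that went furthest upwards in control XX. It read 5.58 to 5.86 there, against 5.00 to 5.27 in control XY and 5.21 to 5.47 in dKO XY. Control XX was above control XY by 0.55 (limma adjusted p = 4.08e-05), and dKO XY was below control XX by 0.38 (limma adjusted p = 0.00239).

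**Figure D4:**
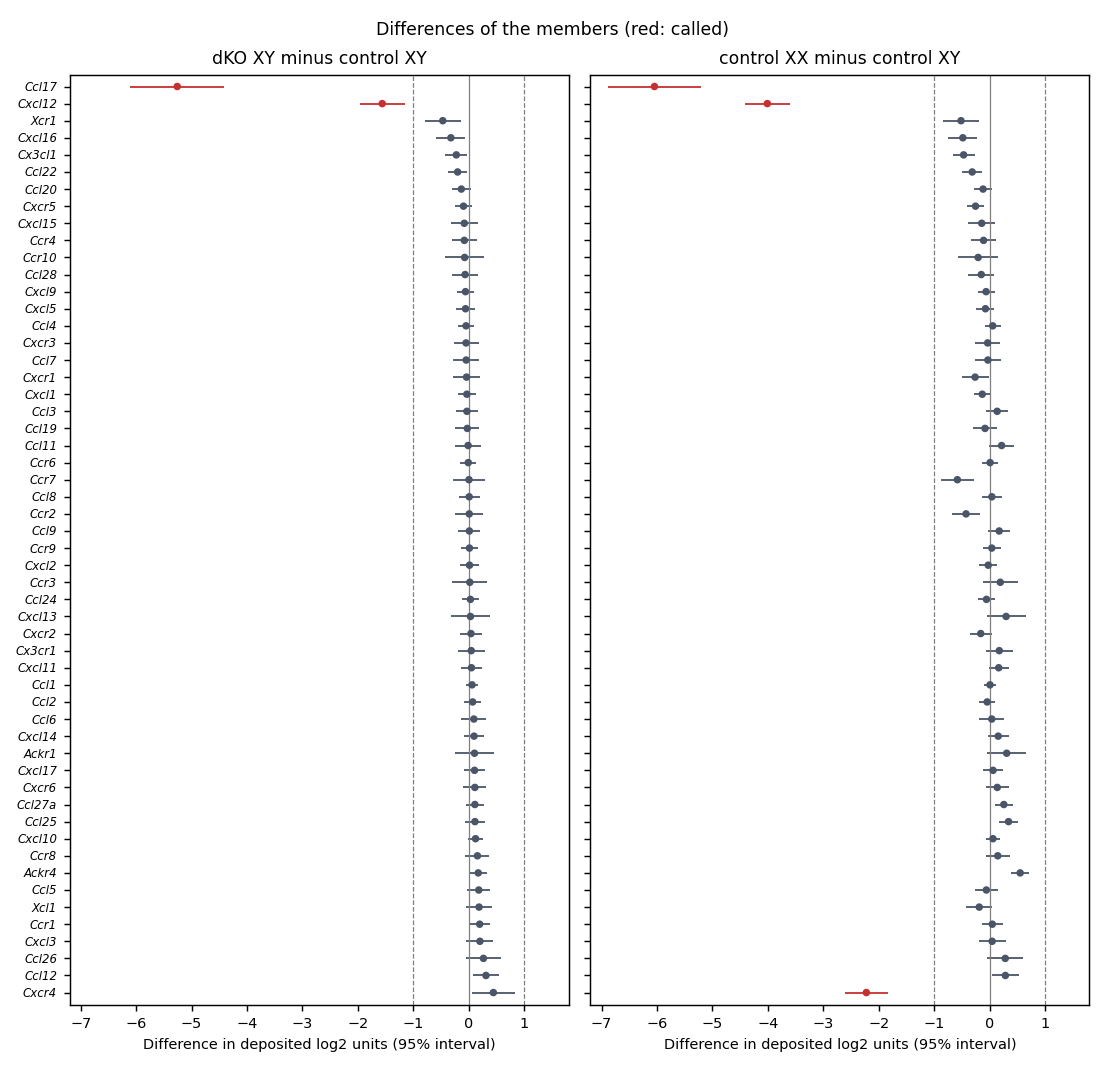
Differences in deposited log2 units (x axis; bars are 95% intervals) of all 54 members for dKO XY minus control XY (left) and control XX minus control XY (right), ordered by the left panel; red marks called members and dashed lines mark a difference of 1. *Ccl17* and *Cxcl12* are red on the left, *Cxcr4* joins them on the right, and all other intervals lie between the dashed lines.

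Over all members, the median difference was 0.01 between dKO XY and control XY, -0.03 between control XX and control XY and 0.04 between dKO XY and control XX, against 0.01, -0.01 and 0.02 over all clusters. The difference was below 0.5 in size for 52, 48 and 50 of the 54 members. Of all clusters, 91.7%, 83.9% and 89.9% were below 0.5. The uncalled members furthest from 0 were *Xcr1*, a receptor of cross-presenting dendritic cells, at -0.47 and *Cxcr4* at 0.44 for dKO XY against control XY, *Ccr7* at -0.58 and *Ackr4* at 0.55 for control XX against control XY, and *Ccl17* at 0.79 and *Ackr4* at -0.38 for dKO XY against control XX. Counted by whether every array of a group lay beyond every array of the other, 3 members were lower in dKO XY when set against control XY (*Ccl17*, *Cxcl12* and *Cxcl16*, a transmembrane ligand; 5.56%) and none higher, where 4.59% and 4.26% of all clusters were. In control XX against control XY, 9 were lower (16.7%) and 2 higher (3.7%), where 9.79% and 8.38% of all clusters were. In dKO XY against control XX, 3 were higher (5.56%) and 1 lower (1.85%), where 6.4% and 5.89% of all clusters were. By the adjusted p alone, with no threshold on the difference, 2 members were lower and none higher for dKO XY against control XY (6.02% and 4.41% of all clusters), 10 lower and 3 higher for control XX against control XY (13.4% and 10.8%), and 5 higher and 1 lower for dKO XY against control XX (7.55% and 7.51%).

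Genes that act downstream of chemokine receptors were followed in a list of 28, of which 26 were measured. Between both XY groups none was called, and the differences ran from -0.52 to 0.70. Against control XY, control XX had 3 called lower and 1 called higher. *Ptk2b*, a calcium-responsive tyrosine kinase, was lower by 2.92 (limma adjusted p = 8.51e-11), *Elmo1*, part of the machinery that activates Rac during migration, by 1.22 (limma adjusted p = 1.09e-06) and *Grk5*, a kinase that desensitizes receptors, by 1.15. *Rgs2*, which shortens G protein signals, was higher by 1.63. dKO XY also exceeded control XX for *Ptk2b* and *Elmo1*, by 3.22 and 1.37. Of 12 measured chemokine-like genes and relatives outside the naming rule, none was called in any comparison.

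No leukocyte marker was called between both XY groups. Of 12 macrophage and monocyte genes and of 5 genes shared by leukocytes, none was called in any comparison. In dKO XY, 1 gene of each list lay below control XY and the others lay above it, with median differences of 0.20 and 0.07. The mean signal over the macrophage list was 6.39 to 6.65 in dKO XY arrays, 6.18 to 6.51 in control XY and 6.22 to 6.66 in control XX, and over the leukocyte list 5.75 to 5.96, 5.59 to 5.85 and 5.57 to 5.76. Of 9 dendritic cell genes, the class II antigen-presenting gene *H2-Ab1* was called, higher by 1.20 in control XX than in control XY, while the list's mean signal lay at 5.85 to 5.96, 5.88 to 5.92 and 5.80 to 5.95. The other class II gene of the list, *H2-Aa*, went the other way, at 4.59 ± 0.03 (SD) in control XX against 4.94 ± 0.15 in control XY, and was not called. In all, 6 of the 9 genes lay below control XY in control XX. Of 7 T and NK cell genes, the granule protease *Gzma* was called, lower by 1.27 in control XX than in control XY, with a list mean of 4.58 to 4.79, 4.75 to 4.91 and 4.51 to 4.68. Of 9 neutrophil and mast cell genes, the mast cell protease *Cpa3* was above control XY by 3.17 in control XX and by 2.47 in dKO XY, the latter not called (limma adjusted p = 0.0545). Control XX replicate 5 read 6.55 for *Cpa3*, within the 5.93 to 7.13 of control XY. The mast cell proteases *Mcpt4* and *Cma1* had means of 4.66 and 6.29 in control XX against 4.55 and 5.38 in control XY, and were not called. The neutrophil genes *S100a8* and *S100a9* exceeded control XX by 2.73 and 2.42 in dKO XY, with SDs of 1.54 and 1.74 among the dKO XY arrays. The other neutrophil genes, *Ly6g*, *Mpo* and *Elane*, read 5.06, 4.93 and 4.14 in dKO XY against 5.09, 4.84 and 4.05 in control XX. None of them was called. The list's mean signal was 6.45 to 7.23, 5.73 to 6.42 and 5.63 to 6.60. Of 9 blood vessel genes, *Cdh5* of the endothelial junctions lay lower in control XX by 1.21 against control XY and by 1.02 against dKO XY, while *Kdr*, a receptor for VEGF, lay above control XY there by 0.81, under the threshold of 1. The list's mean signal was 8.88 to 9.18, 8.81 to 9.07 and 8.61 to 8.99. Of 5 lymphatic genes none was called.

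Among the markers of gonadal cell types, some lists held genes called between both XY groups and others did not. Of 12 Sertoli cell genes, 5 were called lower in dKO XY and 12 in control XX when set against control XY. Against control XX, 9 were called higher in dKO XY. The list's mean signal was 8.60 to 8.99 for dKO XY, 10.02 to 10.46 for control XY and 5.93 to 6.36 in control XX. Both targeted genes are in that list. Of the other 10 genes, 3 were called lower in dKO XY. Their mean signal was 8.93 to 9.41 for dKO XY, 9.88 to 10.31 for control XY and 5.80 to 6.26 for control XX. Not all fell: *Sox9* differed between both XY groups by -0.10 and *Dmrt1* by 0.08, and *Cst9* and *Aard* lay above control XY in dKO XY by 0.99 and 0.62 (limma adjusted p = 0.039 and 0.0018), under the threshold of 1. Of 9 granulosa cell genes, 6 exceeded control XY in dKO XY and 8 did so in control XX, with a list mean of 7.29 to 7.69, 6.07 to 6.23 and 8.65 to 8.87. Of 10 interstitial and stromal genes, 5 were called lower than control XY in dKO XY, with *Wnt5a* lower by 1.97 and *Tcf21* by 1.25. In control XX 6 were called lower. Called or not, the means of all 10 lay below control XY in dKO XY, and of 9 in control XX. The list mean was 10.83 to 11.44 for dKO XY, 12.26 to 12.38 for control XY and 10.37 to 10.92 in control XX, with dKO XY and control XX overlapping. Single genes of the list differed in this: in 6 of the 10 the mean of dKO XY lay above that of control XX, as for *Cxcl12*, by up to 2.82 for *Ptch1* and 2.25 for *Gli1*, and in 4 it lay below, as for *Col1a1* (-0.40) and *Maf* (-0.66). Of 5 fetal Leydig cell genes, none was called between both XY groups and all 5 were lower in control XX, with a list mean of 14.80 to 15.29 for dKO XY, 15.13 to 15.57 for control XY and 7.85 to 8.88 in control XX.

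Of 9 germ cell genes, 3 were called higher than control XY in dKO XY. In control XX, 3 were called higher and 4 called lower than control XY. The list mean was 10.67 to 11.32 for dKO XY, 9.72 to 10.64 for control XY and 10.06 to 10.93 in control XX. *Pou5f1* and *Dppa3*, genes of pluripotent and early germ cells, differed from control XY by -2.39 and -3.76 in control XX and by 0.22 and 0.66 in dKO XY, the latter pair not called, and exceeded control XX by 2.61 and 4.42 in dKO XY. *Sycp3* and *Stra8*, genes of meiosis, and *Dazl*, a germ cell RNA-binding protein, exceeded control XY by 2.92, 3.18 and 1.56 in dKO XY. In 3 of the 9 genes the dKO XY mean lay below that of control XY. The furthest was *Dnd1*, at 6.28 in dKO XY against 7.21 in control XY (-0.93, under the threshold of 1). Of 5 surface epithelium genes, *Upk3b*, *Muc16* and *Krt19* exceeded control XY by 1.81, 1.37 and 1.18 in dKO XY. For these genes control XX was above control XY by 2.21, 1.38 and 1.21. The list's remaining genes, *Lhx9* and *Msln*, were not called. *Lhx9* lay at -0.23 (dKO XY) and 0.02 (control XX) relative to control XY, and *Msln* at 0.24 and -0.06. The list mean was 8.22 to 8.74 for dKO XY, 7.36 to 7.80 for control XY and 8.42 to 8.87 for control XX. Of 4 genes chosen for the mesonephros, *Emx2*, which the gonad also expresses, exceeded control XY by 1.12 in dKO XY and 2.54 in control XX, whereas the kidney and duct factors *Pax2*, *Pax8* and *Lhx1* were not called. Of 3 red cell genes, *Slc4a1* was called, above control XY by 2.51 in control XX.

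The part that any of these cell types has in the differences of *Ccl17*, *Cxcl12* and *Cxcr4* was not tested.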

How the data were processed

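Whole-gonad RNA was hybridised by the authors to Affymetrix Clariom D mouse arrays, normalised by RMA and analysed in Partek. The deposited table holds the log2 signals that the authors obtained, with a genome build not given in the sources used here. Of 72688 entries, 6732 array controls were left out and 65956 clusters tested; 30638 carried 1 gene symbol, 2176 several and 33142 none in the platform annotation. The median cluster mean was 5.26, and 37 of 54 members lay below it.

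Groups and replicate numbers came from the labels. Differences were fitted over all 15 arrays with limma 3.58.1 (lmFit and eBayes, two-sided) in R 4.3.3, without covariates, in place of the one-way analysis of variance of the methods. The procedure was tested on simulated data. The p-values measure the spread between arrays, described by the study as independent biological replicates, and the number of arrays limits the precision.

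Members and gene lists were chosen with earlier results of these data known. Named with values were *Ccl17*, members called in any comparison, the 6 of highest mean signal, the pairing partners of called members, and those nearest the threshold. Other genes were named only if called, at most 4 a list. Exceptions were neighbours, genes that go against their list and uncalled genes given beside called ones, named after their values were seen. Alternatives were normalisation, centring, array weights, filters, variance models, subsets of arrays and a replicate block. Scan dates and slides were not given in the table used. Promoters came from RefSeq (GRCm38.p6), neighbours from the order of its genes.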

Additional observations from a re-analysis of the deposited data

Results flagged for a closer look

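Over the 13 members named by rule and the 3 groups, 39 sets of 5 arrays were examined for a single array far from the others, by the gap to its neighbour relative to the range. There were 5 such values, on 3 arrays, and chance gives about 1 in 20 sets. In dKO XY replicate 1, *Ccl25* read 7.62 where the other arrays read 7.49 to 7.52, *Ccl27a* read 7.64 where they read 7.43 to 7.45, and *Ccl4* read 3.87 where they read 4.06 to 4.09. In control XX replicate 4, *Ccl2* read 4.79 where the others read 4.90 to 4.94. In control XY replicate 1, *Ccr4* read 4.39 where the others read 3.96 to 4.07. None of these genes was called in any comparison.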

How the results depend on the processing

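Counts of called members were the same under the alternatives run, except when no difference of 1 was required: 3 members were then higher and 10 lower for control XX against control XY, and 5 higher and 1 lower for dKO XY against control XX. No direction reversed among the results called. Leaving out any 1 array gave -5.72 to -4.95 for *Ccl17* and -1.66 to -1.40 for *Cxcl12* in dKO XY against control XY, and the same 2 members called. With the replicate number as a block, *Ccl17* differed by -5.26 (limma adjusted p = 1.18e-05) and *Cxcl12* by -1.56 (limma adjusted p = 0.00048) there, and the block changed no call among the members. Deviations of same-numbered arrays correlated at -0.191 to -0.0415 for dKO XY with control XY, -0.113 to 0.189 for control XX with control XY and -0.175 to 0.159 for dKO XY with control XX. Arrays of different numbers were not compared in this way, so whether the numbers pair the arrays is not known. The filter at the median signal left the dimmer members untested, and since each member had 1 cluster, averaging clusters changed nothing. The fit of dKO XY with control XX that left out control XY replicate 2 was added after the values had been seen. A change in a dim member may go unseen, since array signals flatten near background.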
